A study of Mus musculus with 6 samples.

Results

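Immediate early genes are the first genes that a neuron transcribes after strong synaptic input, before any new protein is needed. Calcium entry and kinase signalling act on factors already bound at their promoters, among them CREB and serum response factor. Some of the products are transcription factors that drive a later wave of genes, and others act directly on synapses, on secreted signals or on the kinase cascade that induced them. In the hippocampus their RNA is widely used as a trace of recent neuronal activity. The 36 genes described here are those of the deposited table whose symbol was on a list of such genes, out of 31838 genes in all. Of the 36, 17 encode transcription factors and 19 encode effectors, a name used here for every other product. All 36 were found and all 36 passed the filter on low counts, which kept 20428 genes.

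The table holds polyA RNA of the hippocampus of wild type C57BL/6 mice aged 4 months, in 2 groups of 3 libraries. One group had received corn oil, and the other the plasticiser butyl benzyl phthalate (BBP) at 50 mg/kg/day. The study was about BBP and cognition, and the comparison bears on what the exposure changed in hippocampal RNA. Route, duration and the time from last handling to dissection were not stated in the labels. Nothing there ties the libraries to individual mice either, so every p-value here measures only how much these libraries vary, which may be technical.

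The libraries were of similar depth, with 62477604 to 68422361 deposited counts. The members had 52 to 22277 deposited counts in a library, and 33 of them had a mean of at least 1 FPKM (fragments per kilobase of transcript, scaled to depth). BBP library 1 stood apart in its regional markers. Relative to the corn oil mean on the log2 CPM scale (counts scaled to depth), the median of 15 striatal neuron markers was 1.42 in that library and -0.29 to 0.36 in the other 5, and the median of 15 isocortical neuron markers was 1.05 against -0.14 to 0.19. The hippocampal lists were low there, at -0.84 for 12 dentate granule neuron markers, -0.92 for 10 CA1 markers and -0.82 for 12 CA2 and CA3 markers. In the other 5 libraries these 3 medians lay between -0.26 and 0.44. In bulk tissue, fewer cells of a type and less RNA per cell cannot be told apart. A member's fold change that moved by over 0.1 without BBP library 1 is given with and without it.

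Promoters are shown because the members are known for how they are induced, and so that members with the same element can be set beside their values. RefSeq windows of 250 bases upstream of the start (build GRCm38.p6, the sequence of mm10) were used for 28 of the 36 members. Egr1, Egr3, Arc, Nptx2, Sik1, Spry4, Trib1 and Ier2 were not among them. The members' shares below therefore say nothing about these genes. The cyclic AMP response element (CRE, TGACGTCA), which CREB binds, was present on either strand in 5 of the 28 (17.9%), against 1.77% of 27025 genes. Its core TGACG, which the full element contains, was present in 20 members (71.4%) and in 19.8% of all genes. The CArG box, the element of serum response factor, was found in 2 members (7.14%, against 1.62%), the EGR site GCGGGGGCG in 5 (17.9%, against 2.93%) and the AP-1 site TGANTCA in 0 (against 7.82%). Where a gene had several starts, any window was counted, for members and for all genes alike. A match is only a run of letters in this window.

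The 6 windows below were chosen by the number of full elements, then of TGACG cores, then by name. Each runs 5′ to 3′ and ends at the base before the start, with the full elements in capitals: CArG boxes in Dusp5 and Egr2, an EGR site in Nr4a1, read on the opposite strand, and a CRE in Arl4d, Dusp1 and Btg2.
Dusp5, chr19:53528895-53529144, plus strand: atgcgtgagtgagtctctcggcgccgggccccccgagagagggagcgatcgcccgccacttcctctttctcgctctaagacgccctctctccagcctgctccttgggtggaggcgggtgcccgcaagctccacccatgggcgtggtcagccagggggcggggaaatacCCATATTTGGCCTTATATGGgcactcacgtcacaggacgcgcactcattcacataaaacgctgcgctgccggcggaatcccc
Nr4a1, chr15:101266596-101266845, plus strand: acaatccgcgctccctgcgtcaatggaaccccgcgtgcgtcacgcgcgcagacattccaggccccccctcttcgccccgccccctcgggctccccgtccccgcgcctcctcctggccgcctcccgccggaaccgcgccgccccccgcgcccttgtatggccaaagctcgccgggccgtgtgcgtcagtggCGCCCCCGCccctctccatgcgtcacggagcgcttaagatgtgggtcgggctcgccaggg
Arl4d, chr11:101665291-101665540, plus strand: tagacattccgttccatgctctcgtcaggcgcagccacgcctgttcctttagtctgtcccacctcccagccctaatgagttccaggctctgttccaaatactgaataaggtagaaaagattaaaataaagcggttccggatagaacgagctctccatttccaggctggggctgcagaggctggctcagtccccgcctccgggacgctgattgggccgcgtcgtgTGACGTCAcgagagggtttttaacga
Dusp1, chr17:26508473-26508722, minus strand: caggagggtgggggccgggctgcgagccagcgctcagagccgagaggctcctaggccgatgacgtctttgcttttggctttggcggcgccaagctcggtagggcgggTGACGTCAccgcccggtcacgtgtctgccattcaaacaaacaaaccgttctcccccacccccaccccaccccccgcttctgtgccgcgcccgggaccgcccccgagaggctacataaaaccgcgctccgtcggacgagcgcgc
Btg2, chr1:134079156-134079405, minus strand: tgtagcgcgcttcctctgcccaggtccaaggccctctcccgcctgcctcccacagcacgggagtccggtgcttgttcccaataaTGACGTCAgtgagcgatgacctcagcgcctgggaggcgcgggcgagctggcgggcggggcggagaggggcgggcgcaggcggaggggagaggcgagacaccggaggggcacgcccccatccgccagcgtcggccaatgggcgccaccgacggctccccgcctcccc
Egr2, chr10:67537619-67537868, plus strand: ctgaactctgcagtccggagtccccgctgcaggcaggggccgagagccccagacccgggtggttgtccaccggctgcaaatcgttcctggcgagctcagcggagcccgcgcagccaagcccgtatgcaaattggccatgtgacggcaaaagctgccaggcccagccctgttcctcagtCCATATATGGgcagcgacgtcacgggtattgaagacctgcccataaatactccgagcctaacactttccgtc
The windows of Nr4a1, Dusp1 and Egr2 lie inside the deposited span of their gene, before a RefSeq start within it, and those of the other 3 lie at its 5′ edge or outside it. In Dusp5 a pair of CArG boxes lies side by side, from base 82 to base 63 before the start, and in Egr2 a CArG box spans bases 72 to 63. These members stood on opposite sides in BBP library 1, at -1.12 (Dusp5) and 0.75 (Egr2) relative to the corn oil mean. Of the 5 members with a full CRE, Dusp1 stood at 0.47 there, Scg2 at 0.24, Maff at 0.18, Arl4d at 0.14 and Btg2 at -0.19. The TGACG core was found at both ends of the order in that library, in Npas4 (1.42) and Homer1 (1.25) and in Nr4a3 (-0.93) and Dusp5 (-1.12), and not in Inhba (1.08) or Ier5 (1.05).

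No member's difference between the groups passed the test. In edgeR's quasi-likelihood test over all genes, 0 of 36 members and 0 of 20428 genes (0% called) passed an adjusted p of 0.05, and the adjusted p of the members ran from 0.953 to 0.999. DESeq2 called 0 members and 3 genes in all (0.00943%), and limma on log2(FPKM + 1) called 0 of the 33 members it tested and 0 genes. At an unadjusted p under 0.05, edgeR took in 1 member with a higher mean in BBP (1.98% of all genes), which was Klf4, and 1 with a lower mean (1.37%), which was Sik1. At that level DESeq2 took in 2 members (2.61% of all genes) and limma 2 (2.98%). The edgeR members' share of 5.56%, against 3.35% of all genes, rests on 2 genes.

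As lists, the transcription factors stood slightly higher in BBP than the effectors. The median log2 fold change, BBP against corn oil, was 0.17 for the 17 transcription factors, of which 14 were positive, and 0.01 for the 19 effectors, of which 10 were positive. Over all tested genes the median was 0.01 and 52.4% were positive, against 66.7% of the members. Without BBP library 1 the median was 0.03 for the transcription factors, with 11 positive, and -0.14 for the effectors, with 4 positive, beside 0.0071 for all genes. Leaving out that library turned the sign of 15 members, 12 of them from positive to negative.

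**Figure D1:**
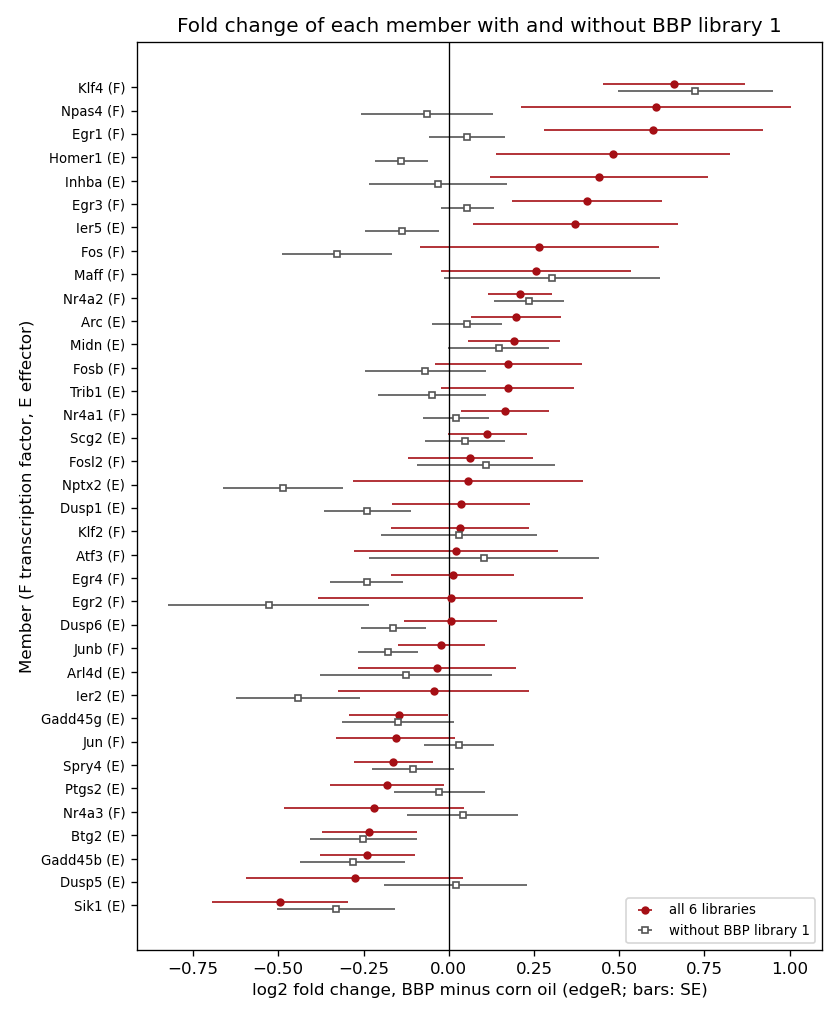
Log2 fold change (BBP minus corn oil, horizontal axis) of each of the 36 members (vertical axis), with all 6 libraries (filled circles) and without BBP library 1 (open squares). Bars are standard errors of the edgeR fit. Npas4, Egr1, Homer1 and Inhba lie at 0.44 to 0.61 with all libraries and at -0.14 to 0.05 without BBP library 1, whereas Klf4 lies at 0.66 and 0.72.

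Apart from Klf4, the largest positive fold changes belonged to genes that stood high in BBP library 1. Egr1, a zinc finger factor induced by growth factors and synaptic activity, had 27.0, 27.7 and 30.3 FPKM in corn oil libraries 1 to 3 and 70.3, 30.4 and 26.7 in BBP libraries 1 to 3. BBP library 1 was 2.47 times the mean of the other 5 libraries, and the other BBP values lay at or next to the corn oil range. The log2 fold change of Egr1 was 0.60 ± 0.32 (SE, edgeR adjusted p = 0.953) and 0.05 ± 0.11 without BBP library 1.

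Egr3, which is induced with Egr1 and binds the same element, had 20.1, 20.4 and 20.4 FPKM in corn oil and 38.6, 20.1 and 21.0 in BBP. Its corn oil libraries were nearly identical (20.3 ± 0.184 FPKM, SD, n = 3), and BBP libraries 2 and 3 stood within 1 FPKM of them. The log2 fold change was 0.40 ± 0.22 and, without BBP library 1, 0.05 ± 0.08. Egr2, known also as a regulator of myelination, was at a much lower level, with 0.637, 0.956 and 1.24 FPKM in corn oil and 1.54, 0.592 and 0.683 in BBP. It varied among the corn oil libraries as well, and its fold change was 0.01 ± 0.39, or -0.53 ± 0.29 without BBP library 1. Egr4, a further member of the family, had 8.93 to 9.46 FPKM in corn oil and 12.3, 7.29 and 7.83 in BBP (fold change 0.01 ± 0.18, or -0.24 ± 0.11 without BBP library 1). All 4 EGR genes had their highest value in BBP library 1.

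Npas4, a neuron-specific factor that responds to calcium entry and adjusts inhibitory synapses, had the widest spread of all members (SD of log2 CPM over the 6 libraries 0.63). It had 3.19, 4.18 and 3.19 FPKM in corn oil and 9.40, 3.71 and 2.82 in BBP. The fold change of 0.61 ± 0.40 became -0.06 ± 0.19 without BBP library 1, in which the gene was 2.75 times the mean of the others. Its lowest value was also in the BBP group, in library 3.

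Among the AP-1 factors, which pair as Fos and Jun proteins, Fos and Fosb stood high in BBP library 1, Jun stood low, and the Fos relative Fosl2 was near the corn oil mean (1.02, 0.57, -0.61 and -0.02). Fos had 4.97, 6.91 and 5.77 FPKM in corn oil and 11.9, 4.24 and 4.91 in BBP, so that the highest and the 2 lowest values were all in the BBP group. Its fold change was 0.27 ± 0.35, and -0.33 ± 0.16 without BBP library 1 (unadjusted p = 0.0756). Fosb had 1.44 to 1.81 FPKM in corn oil and 2.42, 1.66 and 1.35 in BBP (fold change 0.18 ± 0.22, or -0.07 ± 0.18 without BBP library 1).

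Jun had 28.8, 26.6 and 24.0 FPKM in corn oil and 17.3, 23.9 and 28.9 in BBP. BBP library 1 was its lowest library and BBP library 3 overlapped the highest corn oil library. The fold change was -0.16 ± 0.17, or 0.03 ± 0.10 without BBP library 1. Jun overlaps the antisense gene Junos, and which strand was counted is not given, so its level is uncertain.

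Junb, a Jun relative of the early response, had 24.3, 25.8 and 24.8 FPKM in corn oil and 29.8, 19.8 and 23.3 in BBP. It was highest in BBP library 1 and lowest in BBP library 2 (fold change -0.02 ± 0.13, or -0.18 ± 0.09 without BBP library 1). Fosl2, a slower Fos relative, had 3.39 to 4.74 FPKM in corn oil and 3.32 to 5.62 in BBP, with its highest value in BBP library 3. Atf3, a stress-induced factor, and Maff, a small Maf protein, were the lowest members, at means of 0.441 and 0.453 FPKM. Maff had 0.452, 0.481 and 0.311 FPKM in corn oil and 0.467, 0.423 and 0.587 in BBP (fold change 0.26 ± 0.28). The groups overlapped in both genes.

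The NR4A orphan nuclear receptors, which act without a known ligand and are linked to memory, took different places. Nr4a1 had 18.8, 20.5 and 21.3 FPKM in corn oil and 27.1, 20.4 and 19.5 in BBP, with BBP library 1 again highest (fold change 0.17 ± 0.13, or 0.02 ± 0.10 without it). Nr4a3 had 12.6, 12.2 and 8.58 FPKM in corn oil and 5.79, 10.1 and 12.3 in BBP, with BBP library 1 lowest (fold change -0.22 ± 0.26, or 0.04 ± 0.16 without it).

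Nr4a2 (chromosome 2, 57106830 to 57124003, mm10) differed from its relatives in that all BBP libraries lay above all corn oil libraries. It had 13.1, 13.0 and 12.8 FPKM in corn oil and 14.5, 15.7 and 14.0 in BBP, a difference that was small but in the same direction in 3 of 3 libraries. Its fold change was 0.21 ± 0.09 (edgeR adjusted p = 0.953), or 0.24 ± 0.10 without BBP library 1 (unadjusted p = 0.0489, adjusted p = 0.700).

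Klf4 (chromosome 4, 55527143 to 55532466) was the other member whose groups did not overlap. This Krüppel-like factor, known from reprogramming and from vascular endothelium, had 0.699, 0.823 and 1.03 FPKM in corn oil and 1.23, 1.42 and 1.32 in BBP. The values were low, from 151 to 305 deposited counts, and every BBP library exceeded the highest corn oil library. Its fold change was 0.66 ± 0.21 (unadjusted p = 0.0124, edgeR adjusted p = 0.953) and 0.72 ± 0.23 without BBP library 1.

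Groups that did not overlap with BBP higher were found for 2 of 36 members (5.56%) and for 4.40% of all tested genes, and with BBP lower for 0 members and 5.25% of genes. The members' share was thus near the background. Klf2, the related endothelial factor, had 3.71, 4.68 and 4.52 FPKM in corn oil and 4.45, 3.09 and 5.58 in BBP, so that it did not go with Klf4 (fold change 0.03 ± 0.20). Of 10 endothelial markers, 8 were positive with a median of 0.17, none was at 0 in every library, and their summed level was 70.2 to 78.3 FPKM in corn oil and 62.8 to 84.4 in BBP. Flt1, an endothelial VEGF receptor with the smallest p of the 10, had 2.24, 2.33 and 2.36 FPKM in corn oil and 3.35, 2.49 and 2.80 in BBP. Ly6c1, the most abundant of the 10, had 20.0, 22.7 and 22.5 FPKM in corn oil and 21.8, 25.5 and 23.0 in BBP, and its groups overlapped. The part of these cells in the Klf4 values was not tested.

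**Figure D2:**
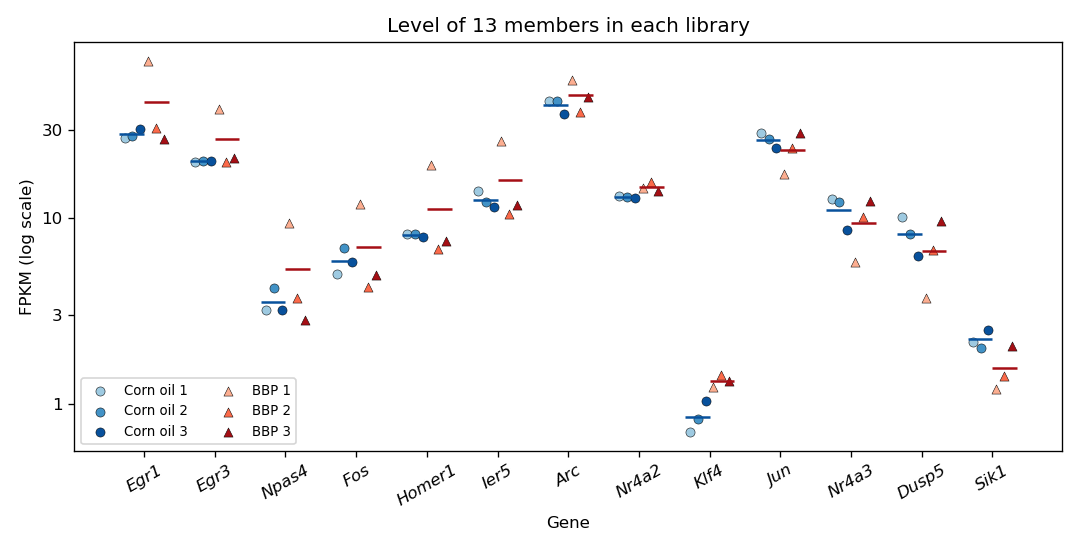
FPKM (log axis) of 13 members in the 3 corn oil libraries (circles) and the 3 BBP libraries (triangles), with group means as bars. BBP library 1 lies above all other libraries for Egr1, Egr3, Npas4, Fos, Homer1, Ier5 and Arc and below them for Jun, Nr4a3, Dusp5 and Sik1, while the BBP libraries of Nr4a2 and Klf4 all lie above corn oil.

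The effectors at the synapse included the most abundant members. Arc, whose product removes AMPA receptors from synapses, had 43.0, 42.5 and 36.6 FPKM in corn oil and 55.6, 37.4 and 45.1 in BBP. The groups overlapped and the fold change was 0.20 ± 0.13, or 0.05 ± 0.10 without BBP library 1. Scg2, a secretogranin of dense core vesicles, had the highest level of all, with 69.9, 73.4 and 81.6 FPKM in corn oil and 88.5, 80.5 and 69.9 in BBP (fold change 0.11 ± 0.12, or 0.05 ± 0.12 without BBP library 1).

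Homer1 (chromosome 13, 93299635 to 93405129), a postsynaptic scaffold gene, showed the same outline as Egr1. It had 8.20, 8.22 and 7.87 FPKM in corn oil and 19.3, 6.80 and 7.54 in BBP. BBP library 1 was 2.50 times the mean of the others, and BBP libraries 2 and 3 lay below every corn oil library. The fold change was 0.48 ± 0.34, and -0.14 ± 0.08 without BBP library 1. The table sums all transcripts of the gene, so the short activity-induced form could not be read apart from the constitutive long form. Homer1 also overlaps a pair of predicted genes on its own strand.

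Inhba, which encodes an activin subunit, had 0.903, 1.18 and 1.05 FPKM in corn oil and 2.22, 1.11 and 0.871 in BBP (fold change 0.44 ± 0.32, or -0.03 ± 0.20 without BBP library 1). It overlaps a clone-named gene on the opposite strand. Nptx2, a secreted pentraxin that clusters AMPA receptors, had 10.3, 9.39 and 14.0 FPKM in corn oil and 19.1, 7.99 and 7.61 in BBP. Without BBP library 1 its fold change was -0.49 ± 0.18 (unadjusted p = 0.0247, edgeR adjusted p = 0.700), against 0.06 ± 0.34 with it. Both genes had their highest and their lowest value within the BBP group.

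Ptgs2, the inducible cyclooxygenase, was lowest in BBP library 1, with 4.36, 4.49 and 3.71 FPKM in corn oil and 2.89, 4.13 and 3.87 in BBP (fold change -0.18 ± 0.17, or -0.03 ± 0.13 without BBP library 1). Arl4d, a small GTPase of the Arf family, had 9.44 to 12.5 FPKM in corn oil and 12.3, 6.63 and 13.6 in BBP. In neither gene did the groups separate.

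The feedback regulators of kinase signalling took opposite places in BBP library 1. Dusp5 (chromosome 19, 53529109 to 53542431), a nuclear phosphatase of ERK, had 10.1, 8.23 and 6.23 FPKM in corn oil and 3.72, 6.71 and 9.62 in BBP. BBP library 1 was lowest at 0.454 times the mean of the others, and the fold change of -0.28 ± 0.32 became 0.02 ± 0.21 without it. Dusp6, the cytoplasmic ERK phosphatase, had 14.6, 14.8 and 13.9 FPKM in corn oil and 17.7, 11.3 and 13.9 in BBP (fold change 0.01 ± 0.14, or -0.16 ± 0.09 without BBP library 1). Dusp1, a phosphatase of several MAP kinases, had 5.18 to 6.36 FPKM in corn oil and 8.24, 4.73 and 5.11 in BBP (fold change 0.04 ± 0.20, or -0.24 ± 0.13 without BBP library 1). Dusp5 was thus at its lowest in the library in which its relatives were at their highest. Dusp1 and Dusp5 overlap other genes of the table, among them Ergic1 for Dusp1, so their levels are uncertain.

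Sik1, a salt-inducible kinase that restrains CREB coactivators, had 2.15, 2.00 and 2.50 FPKM in corn oil and 1.20, 1.41 and 2.05 in BBP. BBP libraries 1 and 2 lay below the corn oil range and BBP library 3 inside it. The fold change was -0.50 ± 0.20 (unadjusted p = 0.0375, edgeR adjusted p = 0.953), and -0.33 ± 0.17 without BBP library 1 (unadjusted p = 0.0909). Spry4, an inhibitor of receptor tyrosine kinase signalling, had 3.23, 3.02 and 2.85 FPKM in corn oil and 2.50, 2.57 and 2.93 in BBP (fold change -0.16 ± 0.12). It had the smallest spread of all members (SD of log2 CPM 0.13). Trib1, a pseudokinase, had 1.66 to 1.81 FPKM in corn oil and 2.56, 1.35 and 1.98 in BBP (fold change 0.17 ± 0.20, or -0.05 ± 0.16 without BBP library 1).

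Among the growth and stress regulators, Ier5, a nuclear protein of the early response, resembled Homer1 in outline (Pearson r over the 6 libraries 0.98). It had 14.0, 12.2 and 11.4 FPKM in corn oil and 26.0, 10.5 and 11.8 in BBP (fold change 0.37 ± 0.30, or -0.14 ± 0.11 without BBP library 1). Ier2, a nuclear protein of the same family, had 3.77, 4.43 and 3.86 FPKM in corn oil and 5.80, 2.47 and 3.32 in BBP. Like Junb, it was highest in BBP library 1 and lowest in BBP library 2. Without BBP library 1 its fold change was -0.44 ± 0.18 (unadjusted p = 0.0415, edgeR adjusted p = 0.700), against -0.04 ± 0.28 with it.

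Gadd45b, a stress protein tied to DNA demethylation in neurons, had 8.68, 8.39 and 6.66 FPKM in corn oil and 7.14, 5.91 and 6.81 in BBP (fold change -0.24 ± 0.14). Btg2, an antiproliferative cofactor, had 5.58, 7.71 and 6.51 FPKM in corn oil and 5.77, 4.81 and 6.04 in BBP (fold change -0.23 ± 0.14). In BBP library 1 these genes stood at -0.14 and -0.19, near the corn oil mean. Gadd45g had 9.03 to 10.4 FPKM in corn oil and 6.95 to 10.3 in BBP. Midn, a nuclear protein that delivers early gene products to the proteasome, had 8.77, 8.59 and 9.03 FPKM in corn oil and 10.7, 10.8 and 8.10 in BBP (fold change 0.19 ± 0.14).

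Across the 36 members, BBP library 1 stood out. It held the highest value of 19 members (52.8%), against 22.1% of all tested genes, and the lowest value of 6 (16.7%), against 20.3%. The remaining 11 members were at neither end there. A value at least 0.5 above the corn oil mean on the log2 CPM scale was found in BBP library 1 for 13 members (36.1%, against 13.1% of all genes) and a value at least 0.5 below it for 5 (13.9%, against 10.1%). In each other library, at most 1 member was that far above and at most 4 were that far below. In BBP library 2 it was 1 above (2.78%, against 13.4% of all genes) and 4 below (11.1%, against 11.6%). The corn oil libraries make up the mean themselves, which holds them near it.

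Transcription factors and effectors were both high in BBP library 1 and lay apart in BBP library 2. The median of the transcription factors was 0.41, 0.09 and -0.04 in BBP libraries 1 to 3, and that of the effectors was 0.28, -0.22 and -0.13. On the log2(FPKM + 1) scale the roles were closer in BBP library 1, at 0.28 for the transcription factors and 0.26 for the effectors. In BBP library 2 they were at -0.01 and -0.23 on that scale. Whether the roles differed was not tested. In the corn oil libraries both medians stayed between -0.07 and 0.07. BBP library 2 held the lowest value of 9 of 19 effectors and of 4 of 17 transcription factors, and of 13 of 36 members together (36.1%, against 26.5% of all genes). By role, the EGR genes were highest in BBP library 1 with a median of 0.83, followed by Npas4 with the KLF factors at 0.54, the synaptic and secreted effectors at 0.45, the AP-1 group at 0.18 and the NR4A receptors at 0.15. The growth and stress regulators stood at 0.07 and the signalling feedback genes at 0.01, near the corn oil mean. The median of 0.54 was the value of Klf4, which stood higher in BBP libraries 2 and 3 (0.85 and 0.62).

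**Figure D3:**
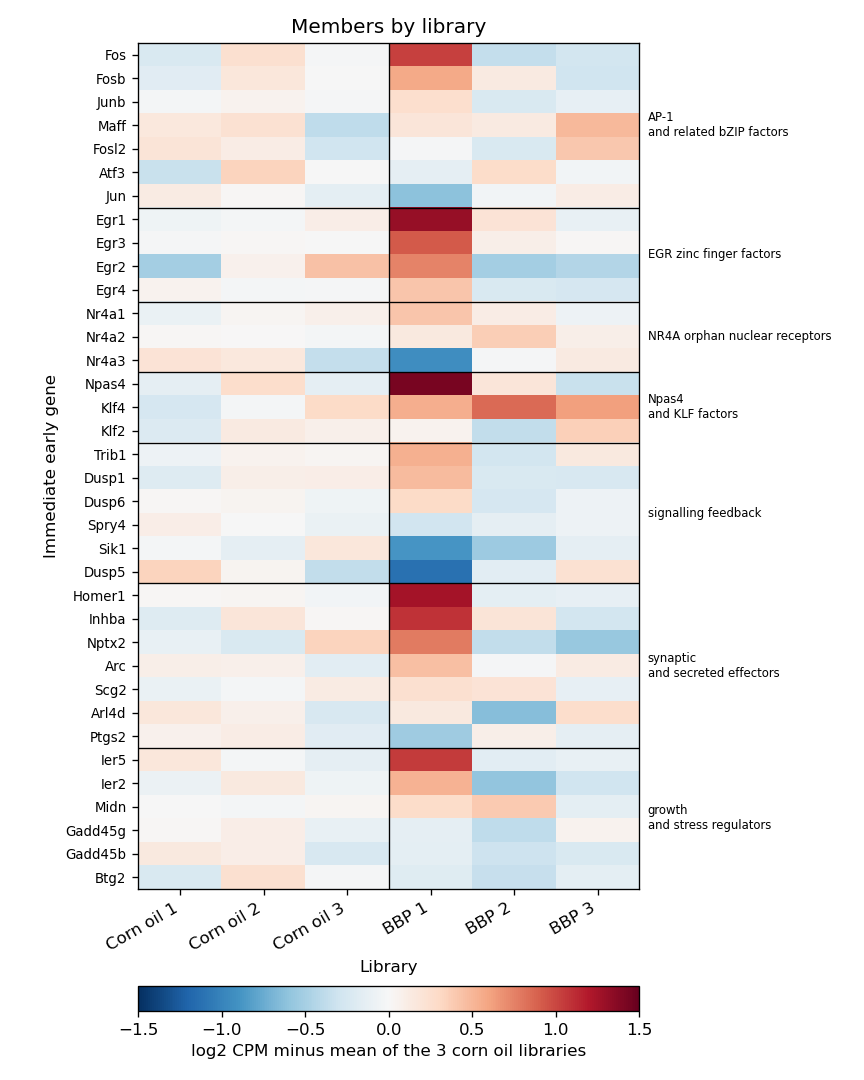
Each of the 36 members (rows, grouped by role) in each library (columns), as log2 CPM minus the mean of the 3 corn oil libraries. Red is above and blue below that mean. The column of BBP library 1 holds 13 members at 0.5 or more, led by Npas4, Egr1 and Homer1, and 5 at -0.5 or less, which are Jun, Nr4a3, Sik1, Dusp5 and Ptgs2.

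A larger set of members was thus high in BBP library 1 and a smaller set low, with the others between them. Over the 630 pairs of members, the Pearson correlation of log2 CPM across the 6 libraries had a median of 0.12, against 0.00 for all pairs of tested genes, as a description over the same 6 points for every pair. It was above 0.8 for 16.8% of member pairs (4.31% of all pairs) and below -0.8 for 8.57% (4.08% of all pairs). By Spearman's rho these shares were 7.14% and 2.38%, against 3.60% and 3.56% of all pairs. The median Pearson value was 0.04 for pairs of transcription factors, 0.19 for pairs of effectors and 0.11 for mixed pairs, and both roles occurred in the high set and in the low set. The strongest pairs were Junb with Ier2 (0.997), Jun with Dusp5 (0.989) and Npas4 with Inhba (0.989), and the most opposed was Nr4a1 with Dusp5 (-0.978). Without BBP library 1, a choice made after that library was seen, 9.05% of member pairs were above 0.8 and 5.71% below -0.8, against 7.18% and 6.91% of all pairs.

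**Figure D4:**
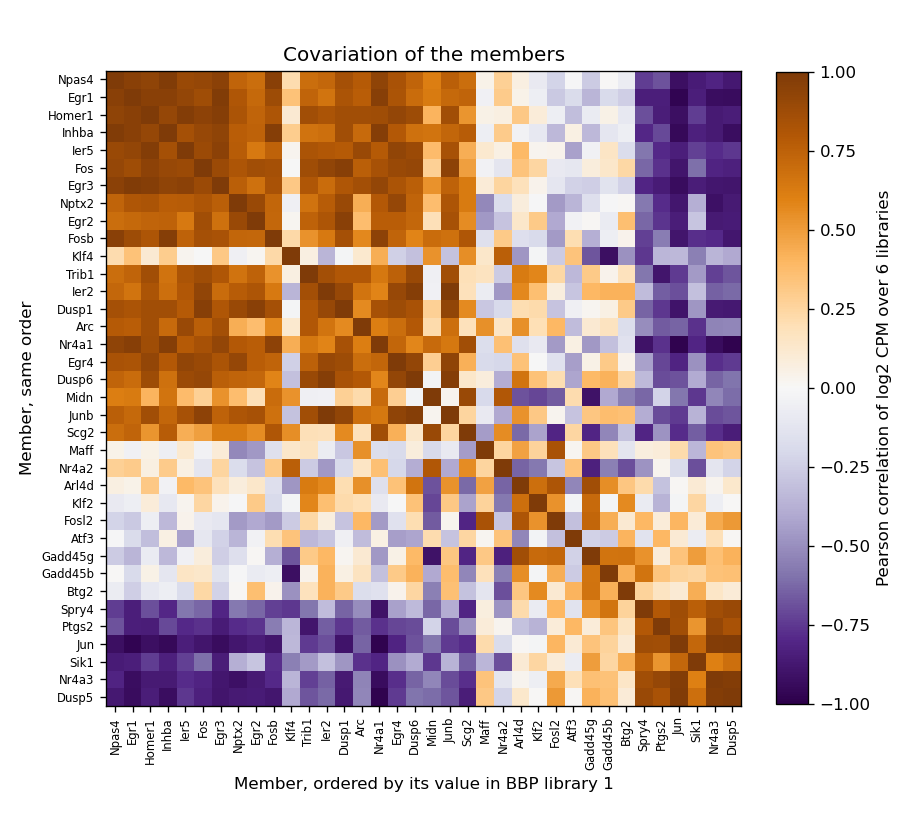
Pearson correlation of log2 CPM over the 6 libraries for every pair of the 36 members, which are ordered on both axes by their value in BBP library 1 from highest to lowest. The block at the top left holds members such as Npas4, Egr1, Homer1, Inhba, Ier5 and Fos, and the block at the bottom right holds Jun, Nr4a3, Dusp5, Sik1, Ptgs2 and Spry4, with negative values between the blocks.

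Without BBP library 1 the members varied about as much as other genes. The median SD of log2 CPM was 0.28 for the members and 0.23 for all tested genes over 6 libraries, and 0.20 and 0.21 over the 5 libraries without it. In those 5 libraries, Nr4a2 and Klf4 were higher in BBP and Nptx2 and Ier2 lower at an unadjusted p under 0.05, which is 5.56% of members in each direction, against 3.17% of genes higher and 3.83% lower. The edgeR fit without that library called 0 members and 3 genes (0.0142%). Leaving out BBP library 3 had the opposite effect on the genes high in BBP library 1. At an unadjusted p under 0.05 that fit took in 7 members higher in BBP (19.4%, against 4.25% of all genes) and 1 lower (2.78%, against 3%). The higher ones were Egr1, Egr3, Npas4 and Inhba, which were highest in BBP library 1, and Midn, Nr4a2 and Klf4, which were highest in BBP library 2. The lower one was Sik1. Klf4 was the only member at that level in the fits without each of the 6 libraries in turn.

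Of the marker lists, the 5 of forebrain regions lay furthest from the corn oil mean in BBP library 1, and others lay off it too. Oligodendrocyte markers stood at 0.56 there and in BBP library 2, endothelial markers at 0.26 and microglial markers at 0.16. Choroid plexus markers stood at -0.65 there, but also at -0.55 in BBP library 3 and -0.53 in corn oil library 1. The 15 striatal markers summed to 193 FPKM in BBP library 1, to 110 and 114 in BBP libraries 2 and 3 and to 115 to 123 in corn oil. Of the 15, 12 were highest in BBP library 1 and 2 lowest, against 22.1% and 20.3% of all tested genes. The 15 isocortical markers summed to 297 FPKM there, against 169 and 190 in the other BBP libraries and 178 to 204 in corn oil. Of these, 9 were highest in BBP library 1 and 4 lowest. Tbr1, a factor of deep-layer cortical neurons, reached 20.9 FPKM there against 9.40 to 11.8 elsewhere, and Pde10a, a striatal phosphodiesterase, 8.60 against 4.21 to 5.11. Gng7, the most abundant striatal marker, went the other way, with 36.3 FPKM in BBP library 1 against 37.6 to 43.9 elsewhere.

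As lists, the hippocampal markers were low in BBP library 1. The summed levels of the dentate, CA1 and CA2 and CA3 lists were 64.1, 145 and 166 FPKM, against 77.3 to 109, 184 to 225 and 259 to 280 in the other libraries. In each list 8 members were lowest in BBP library 1, against 20.3% of all tested genes. The numbers highest there were 0, 0 and 1, against 22.1%, with all these counts taken on the log2 CPM scale. Not every marker was low. Mpped1, the most abundant CA1 marker, had 50.2 FPKM there, against 44.9 to 46.2 in corn oil. Pdzd2, the dentate marker with the smallest p, had 2.74 FPKM there, against 2.08 to 2.67 elsewhere. No marker of these 5 lists was at 0 in every library. The part of these regions and cell types in the values of the immediate early genes was not tested.

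**Figure D5:**
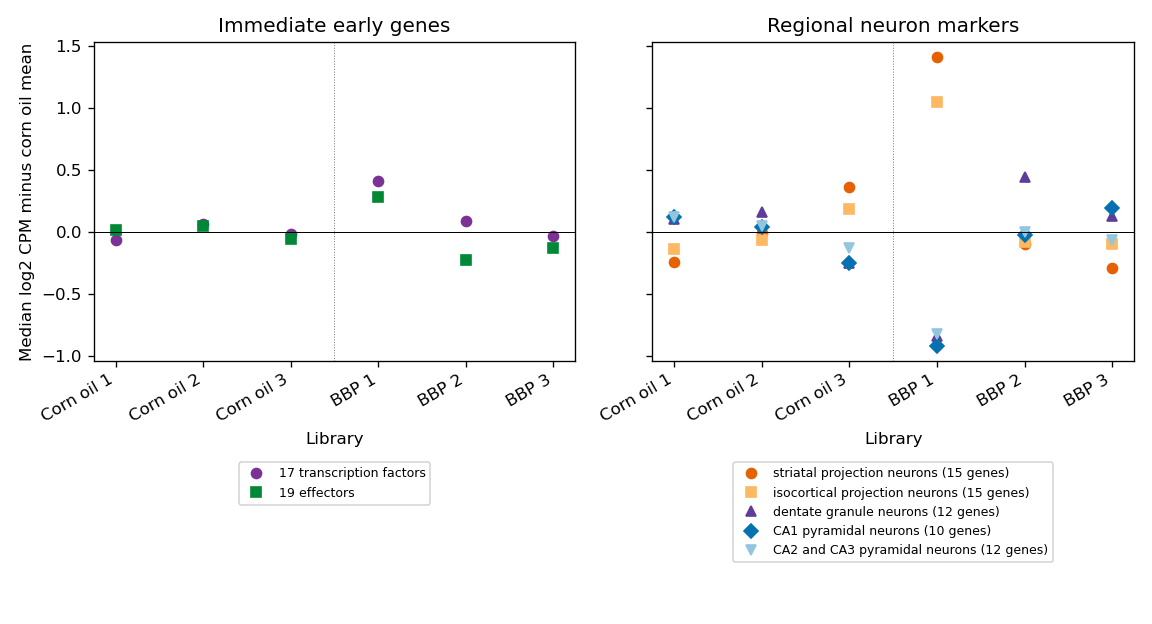
Median log2 CPM minus the corn oil mean in each library, for the 17 transcription factors and 19 effectors (left) and for 5 lists of regional neuron markers (right). In BBP library 1 both member lists lie above 0 (0.41 and 0.28), the striatal and isocortical markers lie at 1.42 and 1.05, and the 3 hippocampal lists lie at -0.92 to -0.82.

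No gene that acts upstream of the members passed the test. Of 30 inducers found, such as kinases and promoter-bound factors, 0 passed edgeR's test and 0 had an unadjusted p under 0.05, with 21 positive and a median of 0.07. Camk2a, the calcium-dependent kinase subunit of excitatory synapses, had 385, 366 and 331 FPKM in corn oil and 300, 469 and 410 in BBP, and was lowest in BBP library 1. Mrtfb, a coactivator of serum response factor, had 18.9, 18.8 and 18.6 FPKM in corn oil and 19.6, 20.8 and 21.6 in BBP (fold change 0.17 ± 0.08, edgeR adjusted p = 0.953).

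A further 38 activity-regulated genes outside the member list were tested, and 0 passed and 0 had an unadjusted p under 0.05, with 18 positive and a median of -0.02. Of these, 17 were highest in BBP library 1 and 6 lowest, against 22.1% and 20.3% of all tested genes. As a list they stood near the corn oil mean there, with a median of 0.04. Csrnp1, a nuclear factor of the early response, had 3.39, 3.25 and 2.66 FPKM in corn oil and 2.32, 1.87 and 3.02 in BBP. Nptx1, a pentraxin related to Nptx2, had 100.3, 94.5 and 74.8 FPKM in corn oil and 71.0, 111 and 98.4 in BBP, so it was lowest in the library in which Nptx2 was highest.

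Lists of other stresses and cells showed no called gene either. Heat shock genes (9 tested) had a median of -0.0015 and stood at 0.08 in BBP library 1, where Hspb1 reached 9.26 FPKM against 5.38 to 5.96 elsewhere. Genes induced by glucocorticoids (12 tested) had a median of -0.06 and stood at -0.51, -0.39 and 0.47 in BBP libraries 1 to 3, and Sgk1, a kinase among them, had 12.4, 13.3 and 31.8 FPKM there and 19.6 to 29.4 in corn oil. The medians over 10 genes each were -0.06 for interneurons, 0.07 for microglia, 0.13 for astrocytes, 0.37 for oligodendrocytes and -0.52 for choroid plexus, and oligodendrocyte markers stood at 0.56 in both BBP libraries 1 and 2. Corn oil library 3 stood apart in the choroid plexus list, which summed to 376 FPKM there, 87.0 and 122 in the other corn oil libraries and 50.7 to 64.0 in BBP.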

How the data were processed

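Members and gene lists were chosen with earlier results of these data known. Per the labels' protocols, polyA RNA was made into dUTP-marked paired-end libraries whose adapters carried molecular identifiers. Build mm10 is given in the submitters' processing notes, together with StringTie 2.1.6, HISAT2 2.2.1, cutadapt 1.9, edgeR, DESeq2 and UMI-tools, without roles. Per the file headers, the authors deposited an estimated count and an FPKM value per gene and library. The counts are whole numbers. How they were made, the annotation and the strand setting: not given in the sources used here. FPKM was used as deposited.

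All genes were fitted with edgeR 4.0.16 in R 4.3.3. The fit used TMM scaling and filterByExpr, and the quasi-likelihood test had treatment as its term, with Benjamini-Hochberg adjustment over 20428 genes and a threshold of 0.05. A standard error is the fold change divided by the root of the F statistic. Log2 CPM used a prior count of 2, and counts of genes highest or lowest in a library were taken on this scale. Alternatives were DESeq2 1.42.0, limma 3.58.1 on log2(FPKM + 1) or log2(FPKM + 0.1), other scaling and filters, counts divided by 4, a replicate block and leaving out each library. The edgeR code was tested on simulated data. Values in every library are given for members with the 2 smallest p or the 2 highest FPKM of a role, with groups that do not overlap or with the 5 largest SDs, and for others picked after their values were seen. From other lists, the genes with the smallest p and the highest FPKM were eligible, and those a result turns on are named. Fold changes are on the log2 scale. Motifs were searched in RefSeq windows on both strands. Figures were drawn with matplotlib 3.10.9.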

Additional observations from a re-analysis of the deposited data

How the results depend on the processing

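The direction of the 22 members chosen by rule was recomputed 304 times. It was kept in 279 cases and reversed in 25, over 9 members, and no member passed an adjusted p of 0.05 in any fit (smallest 0.624). DESeq2 called 3 genes, and leaving out 1 library gave 0 to 3 called genes. With all 6 libraries kept, only Egr2, Klf2 and Dusp6 reversed. Egr2 was at -0.0022 with no filter, -0.025 in limma with no filter and -0.084 with the replicate block. Klf2 was at -0.0040 in limma on log2(FPKM + 1), with the filter and with none, and at -0.011 with the smaller pseudocount. Dusp6 was at -0.0029 with no filter, -0.031 in limma on log2(FPKM + 1) with the filter and with none, -0.034 with the smaller pseudocount and -0.012 with the replicate block.

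Leaving out each library in turn, the fold change ran from -0.18 to 0.072 for Junb, -0.30 to 0.030 for Jun, -0.53 to 0.25 for Egr2 and -0.065 to 0.92 for Npas4. It ran from -0.15 to 0.20 for Klf2, -0.59 to 0.020 for Dusp5, -0.16 to 0.12 for Dusp6, -0.14 to 0.71 for Homer1 and -0.14 to 0.58 for Ier5. Klf4 stayed between 0.54 and 0.82 and Nr4a2 between 0.12 and 0.27. The median correlation of effector pairs was 0.32 on log2(FPKM + 1). The cause of these moves was not tested.

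Same-numbered libraries did not deviate together over all tested genes (r = -0.077, 0.076 and -0.102). Deviations from means of 3 libraries cannot tell whether the numbers pair the libraries in some other way. The replicate block gave 0 called genes in edgeR, with 494 at an unadjusted p under 0.05. The precision is limited by 3 libraries a group: the median standard error of a member was 0.20 on the log2 scale. Even the largest fold change of a member, 0.66 for Klf4, did not pass (edgeR adjusted p = 0.953). Differences well above 1 standard error could thus go uncalled here.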
